A study of Mus musculus with 14 samples.

Results

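Expression of 10 genes of the Notch pathway was followed in adipose tissue of mice labelled as lacking Dectin-1 and of wild-type mice. The genes were the 3 Fringe glycosyltransferases Mfng, Lfng and Rfng, the 4 receptors Notch1, Notch2, Notch3 and Notch4, the ligands Dll4 and Jag1, and the target gene Hes1. They were taken by gene name from a table of 54955 genes, and each name had 1 row. The set was chosen by pathway with the KO and WT levels of these libraries known, Mfng among the genes with low values in KO, so the differences of all 10 between the genotypes are given as descriptions with no test. All 10 passed the filter of 1 TPM in at least 7 libraries, as did 14719 genes in all. The groups were 7 C57BL/6 mice labelled knockout for Dectin-1 (KO, replicates 1 to 7) and 7 wild-type C57BL/6 mice (WT, replicates 3 to 9), all at postnatal week 21. The fat depot, the sex and the targeting allele are not given in the labels used here. Values are TPM, a share of transcripts scaled for gene length, so levels of different genes can be compared, while the number of reads behind each value is unknown.

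Notch receptors are single-pass membrane proteins that are activated by Delta-like and Jagged ligands on a neighbouring cell. Binding exposes the receptor to cleavage by ADAM proteases and then by γ-secretase, and the released intracellular part joins RBPJ and Mastermind-like proteins in the nucleus to switch on genes such as Hes1. Fringe enzymes extend the O-fucose sugars of the receptor's EGF repeats in the Golgi and so tune its response to Delta-like against Jagged ligands. Notch4 and Dll4 are known as endothelial genes, Notch3 as a gene of mural cells around vessels, Notch2 and Lfng as genes of B lymphocytes among other cells, and Notch1 signalling in mouse fat as a brake on adipocyte browning.

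Some features of the libraries bear on the values below. Clec7a, which encodes Dectin-1, stood at 4.02 to 10.46 TPM in KO and 4.10 to 18.86 TPM in WT libraries, so the ranges of the targeted gene overlapped and every direction below compares libraries labelled KO with libraries labelled WT. Adipocyte markers were abundant in all 14 libraries, with Fabp4, the fatty acid carrier, averaging 11273 ± 6387 TPM in KO libraries and 12257 ± 3632 TPM in WT libraries (n = 7 each, SD). KO replicate 7 (1.52 TPM) and WT replicates 4 (0.62 TPM) and 7 (1.31 TPM) nearly lacked Cd79a, a signalling chain of the B-cell antigen receptor, which the other 11 libraries held at 177 to 720 TPM. These 3 are called lymphoid-poor. WT replicate 6 also stood apart for several of the 10 genes and is named where a value rests on it. In bulk tissue, fewer cells of a type and less RNA per cell cannot be told apart.

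Mfng (ENSMUSG00000018169), manic fringe, was the most abundant of the 10 genes. It stood at 57.8 to 103.58 TPM in the 7 KO libraries, with a median of 67.9, and at 106.17 to 184 TPM in the 7 WT libraries, with a median of 120. The groups did not overlap, although the highest KO library, replicate 7, and the lowest WT library, replicate 8, were close to each other. Mean levels were 77.0 ± 17.5 TPM for KO and 134 ± 32 TPM for WT (n = 7 each, SD). The difference of log2(TPM + 1), which for weakly expressed genes is smaller than the true fold, was -0.79 ± 0.17 (SE). Of the 10 genes, 1 had groups without overlap, where 0.319% of all genes tested did in either direction and 0.211% with KO lower, and 0 passed an adjusted p of 0.05 by limma, where 0.0204% of all genes did.

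Without the 3 libraries poor in lymphoid transcripts Mfng averaged 72.5 ± 14.2 TPM in KO (SD, n = 6) and 120 ± 23 TPM in WT (SD, n = 5), a log2 difference of -0.72. When WT replicate 6 was also left out, the difference was -0.61. With each library left out in turn it lay between -0.87 and -0.71. The sign of the difference was the same in each of these fits.

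Levels of other cell types' markers were set beside Mfng. Within the 11 lymphoid-rich libraries its level went with the adipocyte score, the mean log2(TPM + 1) of 10 adipocyte markers, at Pearson r = 0.75 and Spearman rho = 0.70, which did not pass adjustment over 140 relations (permutation p = 0.00544, adjusted p = 0.056). Against the B-cell score r was -0.66 and rho -0.78 (permutation p = 0.025, adjusted p = 0.13). For T cells r was -0.59 and rho -0.41, and for dendritic cells -0.37 and 0.22 (permutation adjusted p of r = 0.19 and 0.57). Values were then centred on the KO and WT means, which removes the gap between the genotypes. The centred r was 0.76 with adipocytes, -0.77 with B cells, -0.81 with T cells and -0.78 with dendritic cells (permutation adjusted p = 0.030, 0.017, 0.017 and 0.039). The matching rho were 0.75, -0.82, -0.64 and -0.39, so the dendritic relation was weak by rank. The permutations ran over all 11 libraries and not within genotypes, so these p are likely too small. Without WT replicate 6 the centred r were 0.89, -0.82, -0.68 and -0.61. All 10 adipocyte markers were measured, and their summed level ran from 7338 to 36610 TPM in KO and from 15200 to 30641 TPM in WT. Of the 10, 9 had lower means in KO, with a median log2 difference of -0.55. The 10 B-cell markers all had higher means in KO, with a median log2 difference of 1.22 and a smallest limma adjusted p of 0.67. They summed to 8.94 to 2266 TPM in KO and 2.88 to 1613 TPM in WT. The value of 1.22 includes the lymphoid-poor libraries, of which more are WT than KO. Without these libraries mean TPM was still higher in KO for all 10. Cd79a then averaged 487 ± 189 TPM in KO and 452 ± 109 TPM in WT, and Cd79b 387 ± 141 and 291 ± 55 TPM (SD). The part of either cell type in the Mfng difference was not tested. The genes whose levels were most like those of Mfng over the 11 libraries were Yif1a (r = 0.97), Sod1 (r = 0.97) and Asns (r = 0.96), among 9929 named genes of at least 5 TPM. All 3 had lower means in KO, as Mfng did, and with values centred on the genotype means their r with Mfng were 0.95, 0.94 and 0.94. These genes were picked by their r over the same libraries, so such likeness follows in part from the choice.

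**Figure D1:**
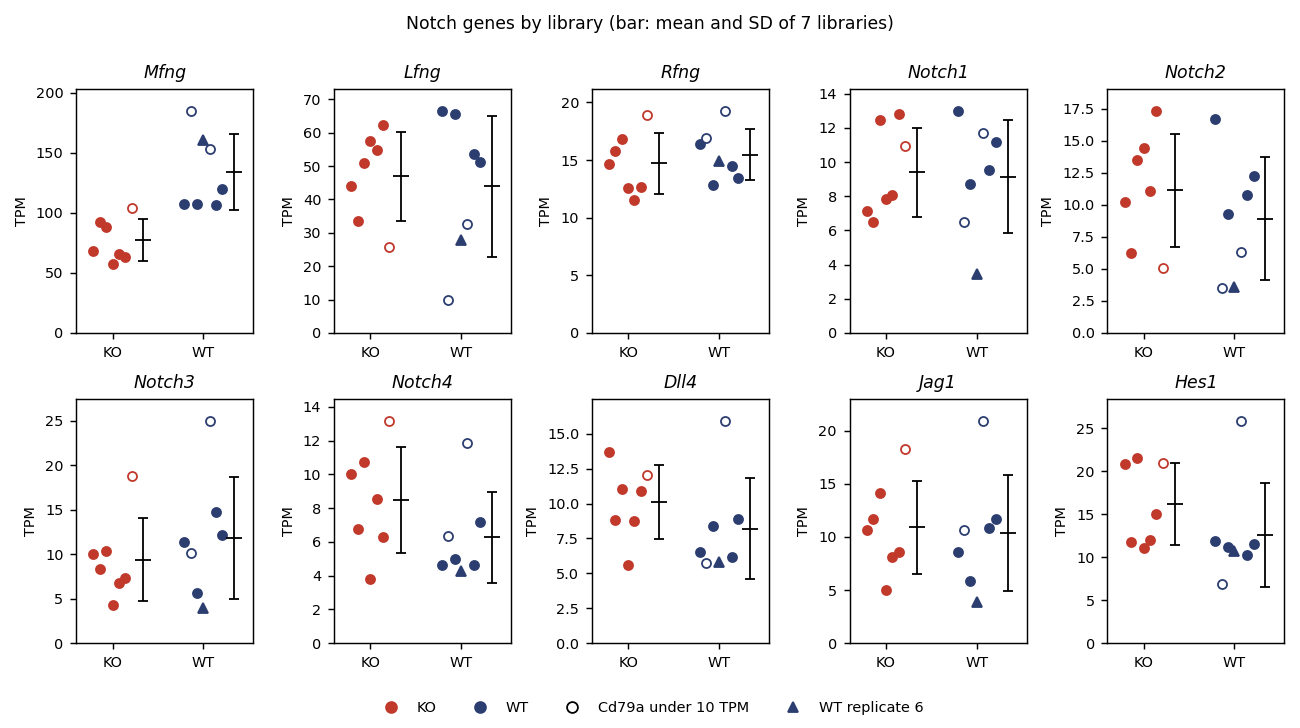
TPM of each of the 10 genes in the 7 KO (left, red) and 7 WT (right, blue) libraries, 1 point per library, with the mean and SD of each group as a bar. Open circles are the 3 libraries with Cd79a under 10 TPM and the triangle is WT replicate 6. Mfng is the gene whose groups do not overlap, at 57.8 to 103.58 TPM in KO and 106.17 to 184 TPM in WT.

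Lfng (ENSMUSG00000029570), lunatic fringe, which is itself a Notch target in mouse somites, was the second gene by level. It ran from 25.6 to 62.3 TPM in KO (median 50.8) and from 9.90 to 66.4 TPM in WT (median 51.4), and the groups overlapped almost entirely. Mean levels were 46.9 ± 13.3 TPM for KO and 43.9 ± 21.1 TPM for WT (n = 7 each, SD; log2 difference 0.24 ± 0.36, SE). The lowest values were those of the lymphoid-poor libraries, KO replicate 7 at 25.6, WT replicate 4 at 9.90 and WT replicate 7 at 32.7 TPM, and of WT replicate 6 at 27.8 TPM. Without WT replicate 4 the log2 difference was -0.06, without all 3 lymphoid-poor libraries it was -0.03, and without WT replicate 6 as well it was -0.25.

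Rfng (ENSMUSG00000025158), radical fringe, varied least, with a coefficient of variation of 15.8% over the 14 libraries against 30.9% to 54.5% for the other 9 genes. It stood at 14.7 ± 2.7 TPM in KO and 15.4 ± 2.2 TPM in WT (n = 7 each, SD; log2 difference -0.07 ± 0.13, SE). Mfng made up 55.2% ± 9.5 of the summed Fringe transcripts in KO and 68.7% ± 11.8 in WT (n = 7 each, SD), and up to 87.3% in WT replicate 4, where Lfng was lowest. The sum of the 3 Fringe genes was 126 to 156 TPM in KO and 174 to 211 TPM in WT. These ranges did not overlap, but Mfng is the largest part of the sum, so this gap largely restates that of Mfng.

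The proximal promoters of the genes were searched for the core of the site read by RBPJ, TGGGAA, on both strands, because many Notch targets carry such sites near their start. RefSeq sequences of GRCm38.p6, from 250 bases before to 50 after the start, were matched by symbol for 8 of the 10 genes; Mfng and Hes1 had no match. Of these 8, only Lfng held the core, while 25.6% of 32851 promoters did. One of its copies is in the longer form GTGGGAA, which 6.38% of promoters hold and which overlaps the core. The Lfng window is chr5:140607091-140607390 on the forward strand, shown 5′ to 3′ with the cores and the G before the second in capitals. The cores begin 135 bases before the start on the reverse strand and 108 bases before it on the forward strand. A match is a description of these letters and not a binding site.
Lfng: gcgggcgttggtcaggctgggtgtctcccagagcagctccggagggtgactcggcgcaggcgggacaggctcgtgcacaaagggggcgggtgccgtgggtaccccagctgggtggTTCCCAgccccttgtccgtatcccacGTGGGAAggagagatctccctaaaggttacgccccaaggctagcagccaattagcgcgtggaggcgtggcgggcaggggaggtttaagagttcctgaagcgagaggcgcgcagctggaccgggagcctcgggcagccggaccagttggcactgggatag

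The 4 receptors were expressed at similar levels, each averaging between 7.36 and 10.61 TPM over the 14 libraries. Notch1 (ENSMUSG00000026923), the receptor that T-cell development depends on, stood at 6.49 to 12.8 TPM in KO (median 8.09) and 3.44 to 12.97 TPM in WT (median 9.51). Notch2 (ENSMUSG00000027878), which marginal zone B cells require, stood at 5.07 to 17.3 TPM in KO (median 11.1) and 3.50 to 16.7 TPM in WT (median 9.30). For both genes the KO and WT ranges overlapped and the lowest or near-lowest WT value was that of WT replicate 6 (3.44 TPM for Notch1 and 3.58 TPM for Notch2). The log2 differences were 0.08 ± 0.25 for Notch1 and 0.36 ± 0.34 for Notch2 (SE). Without WT replicate 6 that of Notch1 was -0.10, so 1 library set its sign, and that of Notch2 was 0.20, as it also was without WT replicate 4. With each library left out in turn the difference lay between -0.10 and 0.17 for Notch1 and between 0.20 and 0.52 for Notch2.

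Notch3 (ENSMUSG00000038146), the mural cell receptor, had the widest spread of the 10 genes, with a coefficient of variation of 54.5%. It stood at 4.25 to 18.8 TPM in KO (median 8.32) and 3.92 to 24.9 TPM in WT (median 11.4), and the highest library in either group was a lymphoid-poor one, KO replicate 7 and WT replicate 7. Its means were 9.39 ± 4.64 TPM in KO and 11.8 ± 6.9 TPM in WT (n = 7 each, SD; log2 difference -0.23 ± 0.35, SE). With each library left out in turn the Notch3 difference lay between -0.43 (without WT replicate 6) and -0.03 (without WT replicate 7), so its size rests on single libraries. Notch4 (ENSMUSG00000015468), the endothelial receptor, stood at 3.78 to 13.1 TPM in KO (median 8.56) and 4.25 to 11.9 TPM in WT (median 5.01). Its means were 8.46 ± 3.14 TPM in KO and 6.26 ± 2.68 TPM in WT (n = 7 each, SD; log2 difference 0.37 ± 0.25, SE). The KO and WT ranges overlapped, again with replicate 7 of each group at the top. The Notch4 difference lay between 0.27 (without KO replicate 7) and 0.53 (without KO replicate 4) with each library left out in turn. Without the 3 lymphoid-poor libraries Notch3 averaged 7.82 ± 2.27 TPM in KO (SD, n = 6) and 9.56 ± 4.60 TPM in WT (SD, n = 5), and Notch4 7.68 ± 2.60 TPM in KO and 5.13 ± 1.17 TPM in WT.

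The make-up of the receptor pool set the lymphoid-poor libraries apart. Notch2 supplied 29.8% ± 11.9 of the summed receptor TPM in KO and 24.7% ± 9.4 in WT, and Notch3 supplied 24.0% ± 8.7 in KO and 31.4% ± 9.1 in WT (n = 7 each, SD). Among the lymphoid-poor libraries Notch2 made up 10.6% of the pool in KO replicate 7, 13.2% of it in WT replicate 4 and 11.6% of it in WT replicate 7, below its share in each of the other 11, which was 22.3% or more. Notch3 made up 39.2%, 38.2% and 45.4% of the pool in the same 3 libraries, above its share in the other 11, at 37.3% or less. The Notch1 share was the steadiest, at 19.1% to 30.5% over the 14 libraries.

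**Figure D2:**
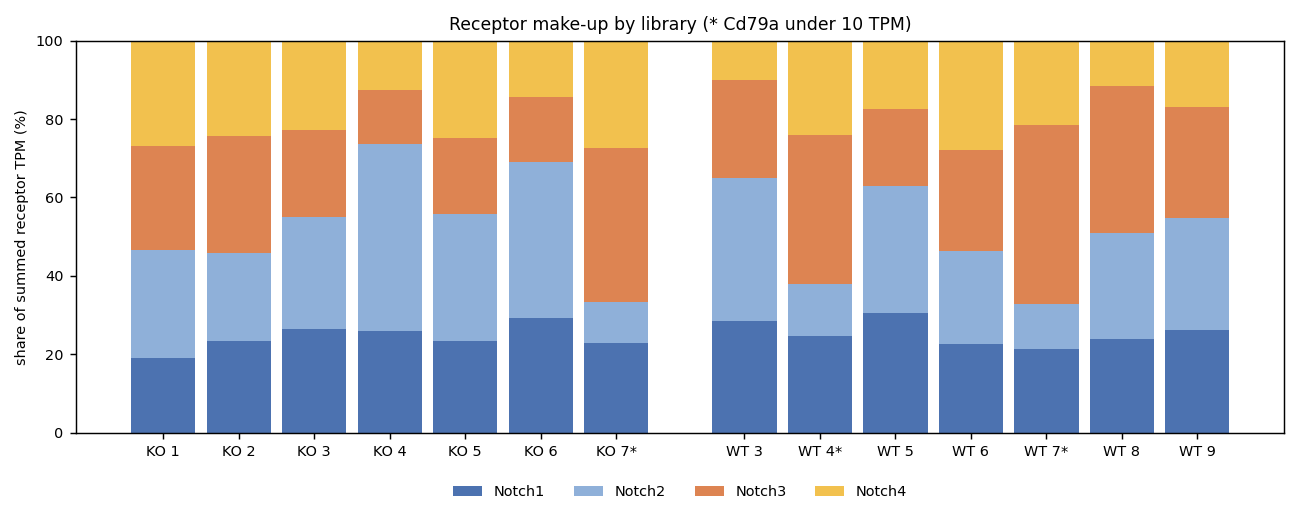
Share of the summed TPM of Notch1 to Notch4 held by each receptor, 1 bar per library, KO on the left and WT on the right, with the libraries poor in lymphoid transcripts starred. In the starred libraries Notch2 takes 10.6% to 13.2% of the pool and Notch3 38.2% to 45.4%.

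The ligands Dll4 (ENSMUSG00000027314), the Delta-like ligand of arterial and sprouting endothelium, and Jag1 (ENSMUSG00000027276), the Jagged ligand of endothelial and mural cells, were about as abundant as the receptors. Dll4 stood at 5.57 to 13.7 TPM in KO (median 10.9) and 5.71 to 15.9 TPM in WT (median 6.54). Its means were 10.1 ± 2.7 TPM in KO and 8.20 ± 3.61 TPM in WT (n = 7 each, SD; log2 difference 0.31 ± 0.22, SE). The ranges overlapped, and 6 of the 7 WT libraries lay at 8.88 TPM or less. With each library left out in turn the log2 difference lay between 0.24 (without KO replicate 1) and 0.47 (without the highest, WT replicate 7). Without the 3 lymphoid-poor libraries the means were 9.80 ± 2.75 TPM in KO (SD, n = 6) and 7.16 ± 1.39 TPM in WT (SD, n = 5).

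Jag1 stood at 4.96 to 18.3 TPM in KO (median 10.7) and 3.86 to 20.9 TPM in WT (median 10.7). Medians and ranges of the groups nearly coincided (log2 difference 0.13 ± 0.31, SE), and the difference lay between -0.06 without WT replicate 6 and 0.31 without WT replicate 7. Jag1 over Dll4 gave a ratio of 1.07 ± 0.30 for KO and 1.28 ± 0.46 for WT (n = 7 each, SD).

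Hes1 (ENSMUSG00000022528), a basic helix-loop-helix repressor that Notch activates, stood at 11.1 to 21.6 TPM in KO (median 15.0) and 6.92 to 25.8 TPM in WT (median 11.2). In WT, 6 libraries lay at 11.86 TPM or less and replicate 7 at 25.8 TPM. The means were 16.2 ± 4.8 TPM in KO and 12.6 ± 6.0 TPM in WT (n = 7 each, SD; log2 difference 0.38 ± 0.24, SE). In KO the values fell into 4 libraries at 11.1 to 15.0 TPM and 3 at 20.9 TPM or more, replicates 1, 3 and 7. The Hes1 difference lay between 0.27 (without WT replicate 4) and 0.56 (without WT replicate 7) with each library left out in turn. Without the 3 lymphoid-poor libraries Hes1 averaged 15.4 ± 4.7 TPM in KO (SD, n = 6) and 11.1 ± 0.63 TPM in WT (SD, n = 5).

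By mean level over the 14 libraries the order was Mfng, Lfng, Rfng, Hes1, Jag1, Notch3, Notch2, Notch1, Dll4 and Notch4. Neighbours in this order were compared within libraries on the log2 scale by a 2-sided exact permutation test that flips signs, with p adjusted over the 9 pairs. Mfng stood above Lfng in 14 of 14 libraries (mean log2 difference 1.24 ± 1.12, SD, exact permutation adjusted p = 0.0011) and Lfng above Rfng in 13 of 14 (1.41 ± 0.85, adjusted p = 0.0016). Hes1 stood above Jag1 in 11 of 14 libraries (0.44 ± 0.50, exact permutation adjusted p = 0.018) and Dll4 above Notch4 in 12 of 14 (0.30 ± 0.26, adjusted p = 0.0048). Rfng and Hes1, Jag1 and Notch3, Notch3 and Notch2, Notch2 and Notch1, and Notch1 and Dll4 did not differ beyond their spread (mean log2 differences of 0.02 to 0.13, exact permutation adjusted p of 0.56 to 0.89). The number of pairs past the threshold was 4 with each library left out in turn and 5 without the 3 lymphoid-poor libraries.

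The correlated members fell into 3 sets by Pearson r, to which the p values here belong unless rank is named. Over the 11 lymphoid-rich libraries 7 of 45 pairs were correlated past an adjusted permutation p of 0.05, all positively. Dll4, Notch4 and Hes1 formed 1 set, with r = 0.88 for Notch4 and Dll4 (rho = 0.91, permutation p = 0.00047, adjusted p = 0.00585), r = 0.82 for Dll4 and Hes1 (rho = 0.85, permutation p = 0.00025, adjusted p = 0.00585) and r = 0.80 for Notch4 and Hes1 (rho = 0.83, permutation p = 0.0028, adjusted p = 0.018). Without the 2 libraries farthest from the median of the first gene, r was 0.85, 0.75 and 0.71 for these pairs.

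Notch3 and Jag1 made a second pair (r = 0.87, rho = 0.84, permutation p = 0.00052, adjusted p = 0.00585; r = 0.68 without the 2 farthest libraries). Lfng, Notch1 and Notch2 made the third set, with r = 0.91 for Notch1 and Notch2 (rho = 0.80, permutation p = 0.00034, adjusted p = 0.00585), r = 0.88 for Lfng and Notch2 (rho = 0.65, permutation p = 0.00135, adjusted p = 0.012) and r = 0.82 for Lfng and Notch1 (rho = 0.67, permutation p = 0.0023, adjusted p = 0.017). By rank Notch1 and Notch2 passed (permutation adjusted p of rho = 0.042), but Lfng with either did not (0.20 for both). The relations of Lfng rest on its extreme libraries (KO replicate 2 and WT replicate 6), since r was 0.40 with Notch2 and 0.41 with Notch1 without the 2 farthest, against 0.73 for Notch1 and Notch2. WT replicate 6 was low in all 3 of these genes, and without it 0 of the 45 pairs passed, with adjusted permutation p of 0.051 for Notch4 and Dll4 (r = 0.86) and 0.056 for Notch1 and Notch2 (r = 0.78). Mfng was correlated with no other member past the threshold (r between -0.58 and 0.44). With values centred on the genotype means its r was -0.83 with Lfng (rho = -0.78, permutation p = 0.0028, adjusted p = 0.021) and -0.73 with Notch2 (rho = -0.58, permutation p = 0.014, adjusted p = 0.077). These p too come from permutations not kept within genotypes and are likely too small. Without WT replicate 6 as well the centred r was -0.71 with Lfng and -0.52 with Notch2. The TPM values of a library share a fixed total.

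**Figure D3:**
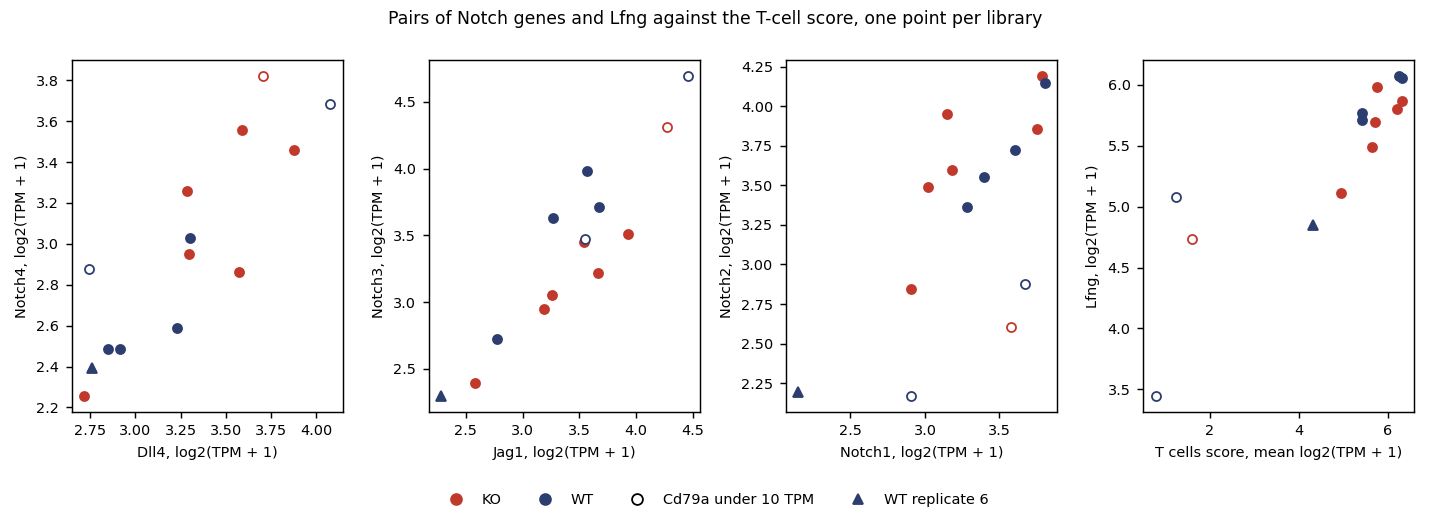
Log2(TPM + 1) of Notch4 against Dll4, Notch3 against Jag1, Notch2 against Notch1, and Lfng against the T-cell score, 1 point per library in KO (red) and WT (blue), with open circles for the libraries with Cd79a under 10 TPM and a triangle for WT replicate 6. Over the 11 filled points r was 0.88, 0.87, 0.91 and 0.90.

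Promoters of Dll4 and Notch4 are shown because the pair was the most strongly correlated between a ligand and a receptor. Both windows are on the forward strand of GRCm38.p6, 5′ to 3′, chr2:119325534-119325833 for Dll4 and chr17:34564045-34564344 for Notch4, and hold no capitals because neither has the RBPJ core. Neither window held CNGGAAGT, a motif of ETS factors, searched on both strands and present in 9.53% of promoters, nor did those of the other 6 genes.
Dll4: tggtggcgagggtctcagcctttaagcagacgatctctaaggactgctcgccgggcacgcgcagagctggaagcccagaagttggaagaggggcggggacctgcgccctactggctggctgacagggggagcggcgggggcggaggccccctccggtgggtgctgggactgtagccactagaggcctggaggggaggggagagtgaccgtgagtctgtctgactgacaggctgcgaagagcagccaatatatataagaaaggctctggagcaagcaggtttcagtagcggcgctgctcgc
Notch4: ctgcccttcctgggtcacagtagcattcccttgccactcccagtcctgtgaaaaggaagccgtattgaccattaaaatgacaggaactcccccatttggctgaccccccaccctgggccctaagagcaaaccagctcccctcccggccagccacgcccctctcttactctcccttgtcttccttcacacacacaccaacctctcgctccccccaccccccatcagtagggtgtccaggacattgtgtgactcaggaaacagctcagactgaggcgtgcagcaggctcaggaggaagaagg

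Several members went with markers of particular cell types. Of 140 relations between the 10 genes and 14 marker scores over the 11 libraries, 10 passed an adjusted permutation p of 0.05 and all were positive. These p values are those of r unless rho is named. The endothelial score (11 markers such as Pecam1 and Cldn5) went with Notch4 (r = 0.84, rho = 0.86, permutation p = 0.00175, adjusted p = 0.040), Dll4 (r = 0.83, rho = 0.90, permutation p = 0.0020, adjusted p = 0.040) and Jag1 (r = 0.80, rho = 0.74, permutation p = 0.0034, adjusted p = 0.048). Jag1 also went with the arterial score, from markers such as Gja4 and Sox17 (r = 0.82, rho = 0.83, permutation p = 0.0023, adjusted p = 0.040). For Hes1 r with the endothelial score was 0.62, not past the threshold. By rank the relation of Jag1 with the endothelial score did not pass (permutation adjusted p of rho = 0.093).

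Notch3 went with the scores of adipose progenitors, led by Dcn and Ly6a (r = 0.88, rho = 0.86, permutation p = 0.00050, adjusted p = 0.029), Schwann cells, with Mbp among the markers (r = 0.87, rho = 0.84, permutation p = 0.00062, adjusted p = 0.029), and mural cells, led by Mcam and Tagln (r = 0.82, rho = 0.77, permutation p = 0.0020, adjusted p = 0.040). These 3 relations of Notch3 also passed without WT replicate 6 (r = 0.92, 0.89 and 0.90, permutation adjusted p = 0.031 for each), and the other 7 did not. Lfng went with the T-cell score, led by Cd3g and Tcf7 (r = 0.90, rho = 0.85, permutation p = 0.00035, adjusted p = 0.029), and the dendritic cell score, led by Siglech and Flt3 (r = 0.92, rho = 0.75, permutation p = 0.00087, adjusted p = 0.030), and Notch1 with the dendritic cell score (r = 0.80, rho = 0.67, permutation p = 0.00255, adjusted p = 0.040). Without the 2 libraries farthest from the median score r was 0.63, 0.48 and 0.25 for these last 3, so they rest on those libraries, KO replicate 2 and WT replicate 6. By rank Notch3 with mural cells did not pass, nor did Lfng or Notch1 with dendritic cells (permutation adjusted p of rho = 0.082, 0.093 and 0.15). Notch1 had higher rho with the macrophage and lymphatic endothelial scores, 0.85 and 0.84. Their r of 0.72 and 0.75 did not pass (permutation adjusted p = 0.080 and 0.056), but their rho did (permutation adjusted p of rho = 0.047 for both). Lfng with the lymph node stroma score likewise passed by rho only (r = 0.80, rho = 0.83, permutation adjusted p = 0.060 for r and 0.047 for rho). With the 2 libraries farthest in each score left out, r was 0.75 to 0.90 for the Notch3 relations, 0.75 for Notch4, 0.70 for Dll4 and 0.56 for Jag1 with endothelium, and 0.92 for Jag1 with arteries. With that done for every relation, 0 of the 140 passed.

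**Figure D4:**
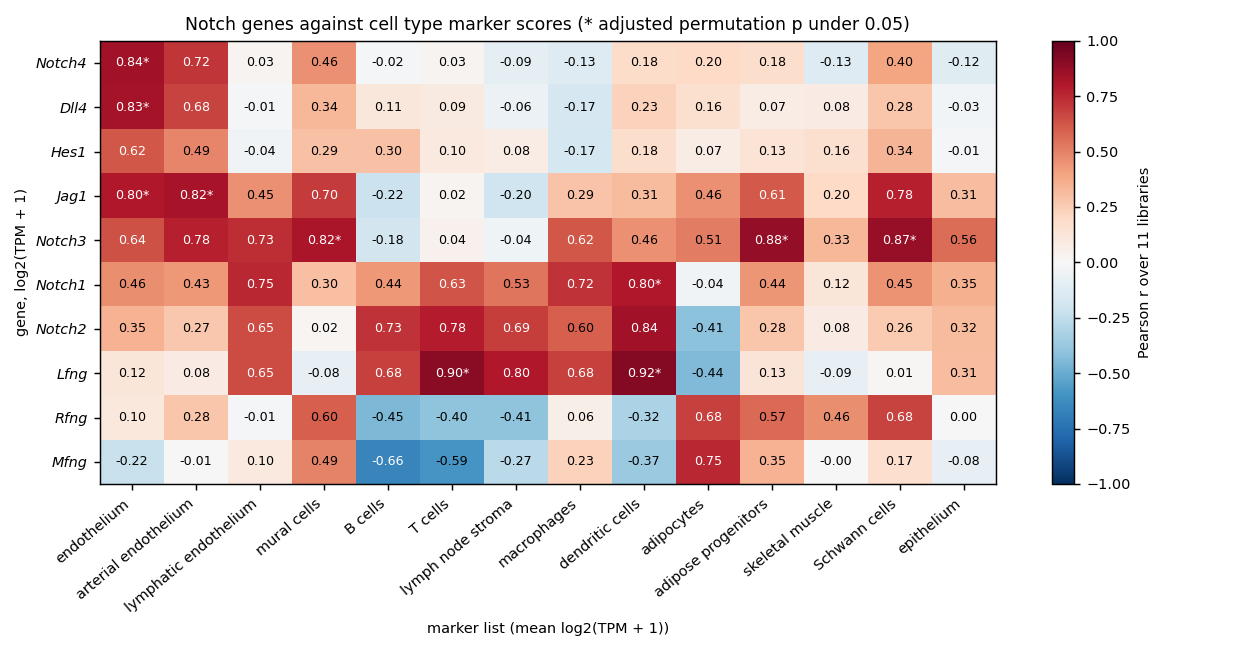
Pearson r between each of the 10 genes (rows) and the mean log2(TPM + 1) of each marker list (columns) over the 11 libraries with Cd79a of 10 TPM or more, with a star where the permutation p adjusted over 140 relations is under 0.05. Stars sit on the endothelial list for Notch4, Dll4 and Jag1, and on the arterial list for Jag1. They also sit on the mural, progenitor and Schwann cell lists for Notch3, the T-cell and dendritic lists for Lfng, and the dendritic list for Notch1. Mfng has its highest r, 0.75, with adipocytes.

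The genes most like each member over the 11 libraries, with their Pearson r, were as follows. Jag2, another Jagged ligand, was nearest to Dll4 (r = 0.94), and Shank3 (0.93) and Sox7 (0.91) were nearest to Notch4. Tgfbr3 and Igfbp5 were nearest to Notch3 (0.97 and 0.96), and Zcchc14 and Stx2 to Jag1 (0.97 for both). Prex1 was nearest to Lfng (0.99), Zfp46 to Notch1 (0.98), Trim3 to Hes1 (0.91) and H1f2 to Rfng (0.94). Ptprj was among the genes nearest to Notch2 (0.99).

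Marker levels of the same cell types overlapped between the genotypes. The 11 endothelial markers summed to 228 to 513 TPM in KO and 225 to 459 TPM in WT, and the 10 mural markers to 178 to 791 TPM in KO and 311 to 892 TPM in WT. The 10 T-cell markers summed to 29.7 to 1012 TPM in KO and 9.75 to 1019 TPM in WT. Of the tested markers, 10 of 11 endothelial and 10 of 10 T-cell genes had higher means and 9 of 10 mural genes lower means in KO, and none was called by limma. Without the 3 lymphoid-poor libraries, 1 of which is KO and 2 WT, mean TPM was higher in KO for 10 of 11 endothelial and 9 of 10 T-cell genes and lower for 8 of 10 mural genes. No marker of these lists was at 0 in all libraries. The part of these cell types in the differences of the 10 genes was not tested.

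Across genotypes, 3 of the 10 genes (Mfng, Rfng and Notch3) had lower means in KO on the log2 scale and 7 had higher, with a median of 0.18, where 45.4% of all genes tested were lower, 54.6% were higher and their median was 0.04. The highest differences were 0.38 for Hes1 and 0.37 for Notch4. Without WT replicate 6, 5 of the 10 were lower (Jag1 and Notch1 in addition), and without it and the 3 lymphoid-poor libraries 6 were lower, among them Lfng, Notch1 and Notch2 but not Jag1. The median of all genes was -0.11 in that last fit.

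The rest of the pathway gave 79 further genes in 7 role groups, of which 69 passed the filter. None of the 69 was called by limma (0 lower and 0 higher, smallest adjusted p = 0.22, where 0.0204% of all genes were called), and at an unadjusted p under 0.05 4 were lower and 1 higher, where 11.4% of all genes tested (992 lower and 687 higher) stood. The median log2 difference was 0.07, against 0.04 over all genes.

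Among the other ligands, 4 of 7 tested genes had lower and 3 higher values. Egfl7, a secreted endothelial protein that binds Notch, stood at 151 ± 36 TPM in KO and 121 ± 23 TPM in WT (n = 7 each, SD; log2 difference 0.31 ± 0.17, limma adjusted p = 0.49). Mfap5, a microfibril protein that binds Jagged and Notch proteins, stood at 19.5 ± 10.4 TPM in KO and 40.7 ± 28.2 TPM in WT (log2 difference -0.94 ± 0.43, limma adjusted p = 0.43). Mfap2, its relative, stood at 6.30 ± 1.81 TPM in KO and 10.2 ± 5.5 TPM in WT. None of the 3 passed.

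Enzymes that build the other parts of the receptor's O-linked sugars showed 2 of 8 genes with lower and 6 with higher values. B4galt1, which adds galactose after Fringe, stood at 33.1 ± 4.8 TPM in KO and 29.7 ± 6.5 TPM in WT. Poglut1, the O-glucosyltransferase, stood at 19.0 ± 2.3 TPM in KO and 20.1 ± 6.1 TPM in WT. Pofut1, which adds the fucose itself, stood at 8.90 ± 1.14 TPM in KO and 8.77 ± 1.93 TPM in WT (n = 7 each, SD). The differences of the 3 were within the spread of the libraries, with limma adjusted p of 0.66 to 0.94.

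Of the cleavage machinery 8 of 10 genes had lower and 2 higher values. The γ-secretase subunits were the most abundant: Psenen at 152 ± 12 TPM in KO and 157 ± 19 TPM in WT, Aph1a at 51.3 ± 7.0 against 62.3 ± 5.0 TPM in WT, and Psen2, a catalytic subunit, at 43.0 ± 7.8 against 46.4 ± 8.3 TPM in WT (n = 7 each, SD). Of these 3, Aph1a had the smallest p, with a log2 difference of -0.28 ± 0.10 and a limma adjusted p of 0.33.

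Genes of receptor trafficking and ubiquitin transfer were lower in 7 of 13 and higher in 6. Nedd4, a ubiquitin ligase, stood at 118 ± 54 TPM in KO and 151 ± 59 TPM in WT. The Deltex genes Dtx2 and Dtx3 pointed in opposite directions, with log2 differences of -0.27 ± 0.16 and 0.38 ± 0.16 (limma adjusted p = 0.53 and 0.40). Their relatives Dtx3l and Dtx4 were at -0.79 ± 0.25 and -0.04 ± 0.17 (limma adjusted p = 0.27 and 0.93).

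In the nucleus, 2 of 9 genes of the activating complex had lower and 7 higher values, and 3 of 13 corepressors lower and 10 higher. Snw1, an RBPJ partner, stood at 35.6 ± 5.2 TPM in KO and 42.0 ± 8.4 TPM in WT, and the acetyltransferases Kat2a and Kat2b had log2 differences of 0.23 ± 0.19 and -0.14 ± 0.17. Of the corepressors, Ctbp1 stood at 98.5 ± 13.6 TPM in KO and 85.7 ± 16.9 TPM in WT, Hdac1 at 80.9 ± 16.0 against 72.7 ± 19.8 TPM in WT, and Hdac2 at 38.3 ± 4.2 against 35.4 ± 6.3 TPM in WT (n = 7 each, SD). None of these differences passed (limma adjusted p of 0.56 to 0.73).

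Of 9 tested target genes other than Hes1, 2 had lower and 7 higher values. Cr2, a complement receptor of B cells and follicular dendritic cells, stood at 31.8 ± 20.4 TPM in KO and 20.6 ± 17.7 TPM in WT (log2 difference 1.02 ± 1.06, limma adjusted p = 0.70). Its difference was 0.45 without WT replicate 7, 1.68 without KO replicate 7 and 0.33 without the 3 lymphoid-poor libraries, in which Cr2 was low, and 0.11 without WT replicate 6 too. Hes6 stood at 23.2 ± 6.8 TPM in KO and 21.7 ± 6.7 TPM in WT, and Myc at 22.1 ± 7.5 TPM in KO and 19.4 ± 11.8 TPM in WT. Hes5, Hes7, Hey2 and Ptcra did not pass the filter on low values.

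**Figure D5:**
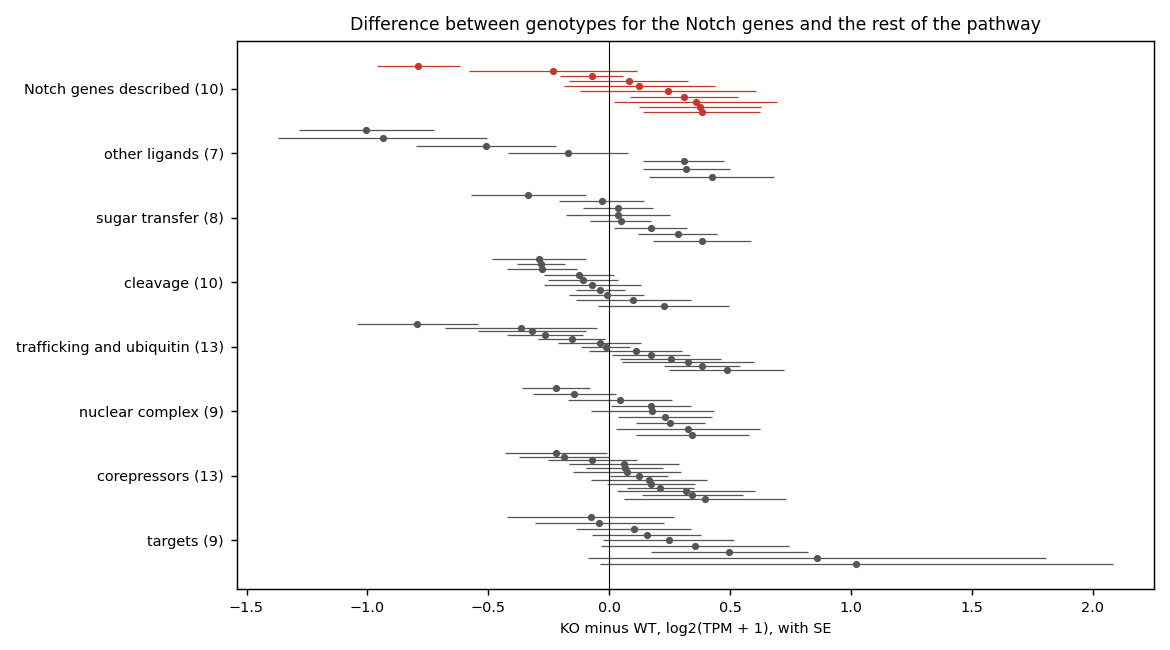
KO minus WT difference of log2(TPM + 1) with its SE, 1 point per gene, for the 10 Notch genes (red, top) and the 69 other tested pathway genes by role group (grey), with the number of genes in parentheses. Mfng, at -0.79, is the leftmost red point, and none of the grey genes passed limma's adjusted threshold.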

How the data were processed

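RNA from adipose tissue of 7 KO-labelled and 7 WT mice was sequenced, from TruSeq libraries of total RNA per the labels' protocols. The authors deposited 1 table of TPM values with 56552 rows; each library column sums to the unit's fixed total. Bowtie 0.12.2 is named, as are the builds mm8 and mm9, per the submitters' processing notes, which leave their roles unstated here; the program behind the TPM values is not given in the sources used here. Depth per library is therefore unknown. The series' design text counts 7 mice a group, so each library was taken as 1 animal.

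Rows of the same gene name were summed. A gene entered the test when 7 or more libraries reached 1 TPM. The test was limma-trend with a robust prior (limma 3.58.1, R 4.3.3) on log2(TPM + 1), KO against WT, with Benjamini-Hochberg adjustment over 14719 genes. Correlations used 100000 permutations in libraries with Cd79a of 10 TPM or more (numpy 2.4.6, scipy 1.17.1), with adjustment over each family. For values centred on the genotype means the permutations were not kept within genotypes, so p values of that setting are likely too small. Members and gene lists were chosen with earlier results of these data known. Named pathway genes are the 3 with the highest mean TPM of each role group. Dlk1, Dtx3l and Dtx4 were added after seeing the data. Some genes that the rules pick are not reported here. Other pseudocounts, filters and scalings, libraries left out and a replicate block were tried. Leaving out WT replicate 6 together with the 3 lymphoid-poor libraries was chosen after seeing the data, as were the centred values for Mfng without that library and for the genes most like it, and the marker means without the lymphoid-poor libraries.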

Additional observations from a re-analysis of the deposited data

Results flagged for a closer look

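In 7 of 72 sets of 7 libraries, 1 library lay far from the rest of its group. A set held 1 group's values of 1 of the 10 genes or of a pathway gene named by its mean TPM, of the Mfng share or of a receptor share. The cutoff flags about 1 in 20 sets when these are independent and normally distributed. Here the sets shared libraries and held correlated genes, so that rate is no fair comparison. Replicate 7 of KO or WT, both poor in lymphoid transcripts, accounted for 6 of the 7 flagged sets. In KO replicate 7, Notch3 was at 18.8 TPM, with the next KO library at 10.4 TPM, and Aph1a at 66.1 TPM, with the next at 52.6 TPM. In WT replicate 7, Notch4 was at 11.9 TPM (next WT library 7.17), Dll4 at 15.9 TPM (next 8.88), Hes1 at 25.8 TPM (next 11.86) and Mfap5 at 99.7 TPM (next 45.8). In WT replicate 3, Aph1a was at 72.9 TPM, with the next WT library at 63.3 TPM. The endothelial and mural marker sums in WT replicate 7 were 455 and 892 TPM, the second and the highest in WT; their part in the values was not tested.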

How the results depend on the processing

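The count of 0 called pathway genes was the same under all 26 alternatives, and the neighbouring pairs that differed numbered 4 or 5 under all 17. The log2 difference of Mfng lay between -0.90 and -0.61 over 26 alternatives. The 3 genes called over the whole table, all lower, became 1 with no filter, 1 with rows as deposited, 19 with quantile normalization (6 of them lower, 13 higher), 8 after median-ratio scaling (5 lower, 3 higher), 6 with TPM rescaled without mitochondrially encoded genes (4 lower, 2 higher), 0 to 6 with a library left out, and 0 without the lymphoid-poor libraries, with or without WT replicate 6. The replicate block over the 10 libraries with shared numbers gave 0 calls, as did these libraries without it (0); same-numbered libraries correlated at -0.68 to 0.78, which does not show that the numbers pair animals, and for 2 of 5 numbers the KO library correlated best with its own number. Of the 10 genes, 3 to 5 were lower in KO with a library left out and 6 without the lymphoid-poor libraries and WT replicate 6. Relations with cell type scores past the threshold numbered 3 with median-ratio scaling, 3 with quantile normalization, 30 with values centred on the genotype means, 3 without WT replicate 6 and 0 without the 2 farthest libraries; between the 10 genes they numbered 0 under both of these last settings. Small differences of pathway genes, none called, changed sign. With quantile normalization Pofut1 was at -0.038 and Psenen at 0.12. With TPM rescaled without mitochondrial genes Poglut1 was at 0.015 and Psenen at 0.0096. With the shared numbers, blocked or not, Poglut1 was at 0.092 and Psen2 at 0.015. Without the lymphoid-poor libraries Pofut1 was at -0.030 and Hes6 at -0.050. Over fits that left out 1 library, or WT replicate 6 with the lymphoid-poor ones, the ranges were -0.15 to 0.097 for Pofut1, -0.32 to 0.059 for Poglut1, -0.014 to 0.23 for B4galt1, -0.071 to 0.0091 for Psenen, -0.046 to 0.25 for Hdac1, -0.016 to 0.19 for Hdac2, -0.11 to 0.22 for Hes6 and -0.24 to 0.54 for Myc. The cause of these changes was not tested.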
